A study of Mus musculus with 18 samples.

Results

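A set of 43 DNA replication and mitosis genes was followed through epidermis, dermis and whole skin of K14NICDER transgenic and wild-type mice. Members were found by symbol in the annotation of the array platform. Of the 43 genes, 42 had a probe set assigned to 1 symbol, 95 probe sets in all out of 45037. Of these, 41 genes passed a filter on dim signal, the mean over all 18 arrays above a log2 value of 3.15, and were tested among 13739 genes: 11 replication genes, 5 regulators of the step from G1 to S phase (G1/S regulators) and 25 mitosis genes. Ccnb1, a cyclin of mitotic entry, was not analysed here, since no probe set was assigned to its symbol alone in the annotation used. Probe sets with several symbols were left out. Plk1, a kinase of mitotic entry, lay under the filter, with log2 signals from 3.47 to 5.96 in epidermis, from -0.13 to 2.80 in dermis and from 2.97 to 4.24 in whole skin.

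The 18 Affymetrix expression arrays comprised 3 per group, for wild-type and for transgenic epidermis, dermis and whole skin. The transgene encodes the intracellular, signalling part of Notch joined to a domain that binds hormone, and the keratin 14 promoter directs it to basal keratinocytes. All mice, wild-type controls included, were female, of C57Bl6xCBA F1 background, 7 weeks old at the start, and received 4OHT (4-hydroxytamoxifen), the compound that activates the fusion, for 14 days. Skin lay in RNAlater, a stabilising solution, for 24 hours before RNA was taken. Nothing in the labels says whether a sample was 1 animal or a pool, or whether the tissues share animals, so p-values here reflect how far these samples differ, which may be technical. In such bulk samples more cells of a cycling type and more RNA per cell cannot be told apart.

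DNA replication starts from origins that Cdc6 and the Mcm2 to Mcm7 helicase ring license in G1, and it draws on the Pcna clamp and on deoxynucleotides made by ribonucleotide reductase (Rrm1, Rrm2) and thymidylate synthase (Tyms). Mitosis is driven by Cdk1 with A and B cyclins, watched over by the spindle checkpoint, and completed by motor proteins and the cytokinesis machinery. In skin these genes mark basal keratinocytes, the hair matrix of growing follicles and any other dividing cell. Replication genes are classically under control of E2F factors, and mitosis genes under control of complexes that read the cell cycle homology region (CHR) and the CCAAT box.

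The promoters of 4 of the genes that rose in whole skin, and of Cdk1, are shown to set the letters found in replication genes beside those of mitosis genes. Each sequence covers the 160 bases before the start site, from RefSeq on GRCm38.p6, written 5′ to 3′ along the gene's strand. Capitals mark every match, on either strand, to the CHR (TTTGAA or TTCGAA), the CCAAT box (CCAAT) or the E2F motif (TTTCCCGC, TTTCGCGC, TTTGGCGC or TTTGCCGC).
Mcm5 (chr8:75109349-75109508, plus strand): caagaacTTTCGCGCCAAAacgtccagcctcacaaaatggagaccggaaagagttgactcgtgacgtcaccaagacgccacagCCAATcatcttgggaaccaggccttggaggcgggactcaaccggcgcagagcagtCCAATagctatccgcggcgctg
Rrm2 (chr12:24708094-24708253, plus strand): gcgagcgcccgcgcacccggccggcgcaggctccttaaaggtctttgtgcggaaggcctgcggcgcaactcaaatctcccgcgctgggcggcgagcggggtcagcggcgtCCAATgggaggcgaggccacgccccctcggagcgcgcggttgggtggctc
Mki67 (chr7:135716380-135716539, minus strand): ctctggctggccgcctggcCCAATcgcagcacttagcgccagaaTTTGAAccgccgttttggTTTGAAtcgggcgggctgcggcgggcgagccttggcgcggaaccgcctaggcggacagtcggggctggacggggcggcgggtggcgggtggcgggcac
Top2a (chr11:99024190-99024349, minus strand): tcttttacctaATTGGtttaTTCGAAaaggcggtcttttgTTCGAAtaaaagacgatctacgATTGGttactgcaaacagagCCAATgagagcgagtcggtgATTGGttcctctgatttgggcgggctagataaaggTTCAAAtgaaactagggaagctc
Cdk1 (chr10:69352913-69353072, minus strand): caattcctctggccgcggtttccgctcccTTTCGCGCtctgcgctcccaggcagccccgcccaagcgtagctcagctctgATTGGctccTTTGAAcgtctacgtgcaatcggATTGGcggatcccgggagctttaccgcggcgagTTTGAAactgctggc

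In the replication genes Mcm5 and Rrm2 no CHR letters occurred in these stretches, and the capitals at the 5′ end of Mcm5 are an E2F match on each strand that overlap. In the mitosis genes Mki67, Top2a and Cdk1 the CHR letters stood beside CCAAT boxes. Over the whole window, 250 bases before to 50 after the start, 36 of the 43 members had a sequence. The CHR letters occurred in 17 of 23 mitosis genes (73.91%), in 2 of 10 replication genes (20.0%) and in 21.66% of all 27025 genes with a window. The E2F letters occurred in 5 of 10 replication genes, in 1 of 23 mitosis genes, Cdk1, and in 2.6% of all genes. The CCAAT box occurred in 8 of 10 replication genes, in 18 of 23 mitosis genes and in 41.06% of all genes. These are counts of letters, with overlaps between motifs kept, and not of bound sites.

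The arrays were first compared as a whole. The spread between arrays of a group was smaller in whole skin than in the separated layers: the median standard deviation of the tested members within a group was 0.19 log2 units in whole skin, 0.43 in epidermis and 0.54 in dermis. Signal was unevenly spread over probe sets: the brightest 1% of them accounted for a share of the linear signal that was 16.8% on transgenic dermis replicate 1, within the range of whole skin (16.5% to 19.2%), and lay between 19.3% and 32.0% on the other dermis arrays. Results in dermis are therefore also given without that array. The labels of the layers were checked on wild-type arrays: all 15 tested fibroblast genes were higher in dermis at an adjusted p under 0.05, among them Pdgfrb and Dpt. Keratinocyte RNA was present in both layers. The summed linear signal of 12 basal keratinocyte genes was 18324.8 to 23757.5 in wild-type epidermis and 14467.4 to 16979.6 in wild-type dermis.

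In whole skin, where the layers were not separated, the replication genes Mcm5 and Rrm2 and the mitosis genes Mki67, Top2a and Ccna2 were higher in transgenic mice. Of the 41 tested members, 5 rose and 0 fell at an adjusted p under 0.05 (limma, Benjamini-Hochberg over all genes tested), against 1.71% of all genes called higher and 1.08% called lower. All 3 transgenic arrays lay above all 3 wild-type arrays for 25 members and below them for 0, against 11.6% and 12.7% of all genes. The median log2 difference, transgenic minus wild type, was 0.32 over the replication genes, 0.47 over the mitosis genes and -0.01 over all genes tested. At an unadjusted p under 0.05, 23 members were higher (8.79% of all genes) and 0 lower (9.03%).

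Among the replication genes, Mcm5, a subunit of the helicase ring, had log2 signals of 8.23, 7.88 and 8.09 on the wild-type arrays and 8.74, 8.65 and 8.92 on the transgenic arrays. Every transgenic array exceeded every wild-type array, and Mcm5 rose by 0.70 ± 0.12 (SE, n = 3 per group, 1.63-fold, adjusted p = 0.0213). Rrm2, the cell-cycle-regulated subunit of ribonucleotide reductase, stood at 8.05, 8.24 and 7.95 in wild type and 9.0, 8.52 and 8.71 in transgenic whole skin. It rose by 0.67 ± 0.14 (1.59-fold, adjusted p = 0.0443), again without overlap of the groups. The probe sets used for both genes belong to a class that the manufacturer marks as possibly matching other transcripts. So do those used for Mcm4, Mcm6, Mcm7, Cdc20 and Aurkb. Probe sets of other classes that the manufacturer marks, such as the one used for Mcm2, are not listed here. The other 2 probe sets of Rrm2 differed by 0.64 and 0.71, and those of Mcm5 by 0.03 and 0.63.

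The remaining 9 replication genes did not pass the threshold, with differences from -0.21 for Tyms to 0.72 for Cdc6. Cdc6, the loader of the helicase ring, had 4.86, 4.79 and 4.83 in wild type and 5.46, 5.85 and 5.33 in transgenic skin, a difference of 0.72 ± 0.19 with groups apart (adjusted p = 0.0998). Pcna, the sliding clamp, differed by 0.23 ± 0.10 (adjusted p = 0.267) and Mcm2, another helicase subunit, by 0.32 ± 0.26 (adjusted p = 0.573). Of the 7 licensing and helicase genes all 7 had a difference above 0. None of the 5 G1/S regulators was called. Their differences ran from -0.35 ± 0.34 for Chek1, a checkpoint kinase, to 0.56 ± 0.21 for Ccne2, a cyclin of S phase entry, and E2f1, the transcription factor, stood at -0.21 ± 0.29. The other probe sets of Chek1 differed by 0.42 to 0.71, opposite in sign to the one used.

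Of the mitosis genes, 3 rose in whole skin. Mki67, the proliferation marker that coats mitotic chromosomes, had 9.55, 9.63 and 9.61 in wild type and 10.20, 9.94 and 10.17 in transgenic skin, and rose by 0.50 ± 0.09 (1.42-fold, adjusted p = 0.0236). Top2a, the topoisomerase that untangles sister chromatids, had 6.71, 6.85 and 6.57 against 7.74, 7.29 and 7.61 and rose by 0.84 ± 0.15 (1.79-fold, adjusted p = 0.0239). Ccna2, the cyclin of S phase and early mitosis, had 6.59, 6.98 and 6.50 against 7.76, 7.39 and 7.66 and rose by 0.91 ± 0.16 (1.88-fold, adjusted p = 0.0239). The groups of all 3 genes were apart. The second probe set of Ccna2 differed by 0.66, also with groups apart, while the second tested probe set of Top2a differed by 0.23 with groups that overlapped.

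The other 22 mitosis genes did not pass the threshold in whole skin, and 20 of them had a difference above 0. By role, the median was 0.73 for 7 genes grouped as mitotic cyclins and kinases, with Birc5, which is neither, counted among them. It was 0.43 for the 6 genes of the spindle checkpoint and anaphase, and 0.36 for the 10 genes of the spindle and cytokinesis. Aurkb, the kinase of the chromosomal passenger complex, differed by 0.83 ± 0.19 (adjusted p = 0.0653), Tpx2, a spindle assembly factor, by 0.87 ± 0.23 (adjusted p = 0.098), and Hmmr, a spindle-associated hyaluronan receptor, by 0.88 ± 0.30 (adjusted p = 0.176). The other 4 tested probe sets of Hmmr differed by -0.33 to 0.23, with overlapping groups. Cdk1, the kinase that starts mitosis, had 5.79, 6.02 and 5.77 in wild type and 6.47, 6.15 and 6.30 in transgenic skin, a difference of 0.44 ± 0.15 (adjusted p = 0.171) with groups apart. The lowest values were those of Ttk, the Mps1 checkpoint kinase, at -0.06 ± 0.20 and of Kif23, a kinesin of the cytokinetic midzone, at -0.05 ± 0.17.

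The calls in whole skin depended on the model of the spread, while the direction of the 5 called genes did not. With all 18 arrays in 1 fit, or without a trend in the prior on the spread, 0 replication and 0 mitosis genes were called. Over all genes, 37 and 84 were then called in place of 384. With weights by tissue, 4 replication and 8 mitosis genes were called, beside 594 of all genes. Leaving out 1 of the 6 arrays left 0 or 1 replication genes and 0 to 5 mitosis genes called, and the differences of the 5 called genes then ran from 0.46 to 1.06. Of the single arrays, leaving out transgenic replicate 1 or 3 or wild-type replicate 1 or 3 left 0 replication and 0 mitosis genes called. Over all genes, 99, 410, 95 and 188 were then called, in that order. Leaving out transgenic replicate 2 left 0 replication and 2 mitosis genes, with 131 of all genes called. Leaving out wild-type replicate 2 left 1 and 5, with 271 of all genes called.

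Further genes of the same processes were taken from lists of other replication and other mitosis genes, to be read against the 1.71% of all genes called higher in whole skin. Of 39 tested other replication genes 1 rose and 0 fell: Lig1, the ligase that joins Okazaki fragments, by 0.60 ± 0.10 (adjusted p = 0.0193). Of 49 other mitosis genes 5 rose and 0 fell. Among them were Cks1b, a subunit of cyclin-dependent kinases, by 0.57 ± 0.08 (adjusted p = 0.00924), Ncapg, a condensin subunit, by 0.91 ± 0.14 (adjusted p = 0.015), Pbk, a mitotic kinase, by 0.84 ± 0.15 (adjusted p = 0.0264), and Nuf2, a kinetochore protein, by 1.21 ± 0.23 (adjusted p = 0.0296). The median difference was 0.18 over the other replication genes and 0.47 over the other mitosis genes.

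Some genes of other cell types moved with the genotype in whole skin. All 8 tested keratinocyte alarm genes, such as Krt6a and S100a8, rose, and their summed linear signal was 1377.46 to 1714.18 in wild type and 4574.6 to 13235.5 in transgenic skin. Of 10 T cell genes 2 rose, Icos by 1.32 ± 0.21 and Foxp3 by 1.15 ± 0.24, with a summed signal of 450.492 to 580.774 in wild type and 536.343 to 691.884 in transgenic skin. These sums overlapped. A difference above 0 was found for 6 of the 10, against 48.1% of all genes, and the 10 ranged from -0.59 to 1.38. The summed signal of 24 genes of the hair matrix, shaft and inner root sheath, of which 1 of 17 tested rose, was 508.944 to 904.941 in wild type and 448.406 to 2453.68 in transgenic skin. Of 18 tested genes of differentiated keratinocytes 3 rose and 0 fell, with sums over 19 genes of 20290.2 to 22807.2 in wild type and 23392.1 to 29298 in transgenic skin. Of 12 tested basal keratinocyte genes 0 rose and 1 fell, against 1.71% and 1.08% of all genes, and 3 had a difference above 0. Their median difference was -0.18. Their summed signal was 12670.2 to 15058.4 in wild type and 12567.5 to 13072.1 in transgenic skin, ranges that overlapped. The part of these cell types in the differences of the replication and mitosis genes was not tested.

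**Figure D1:**
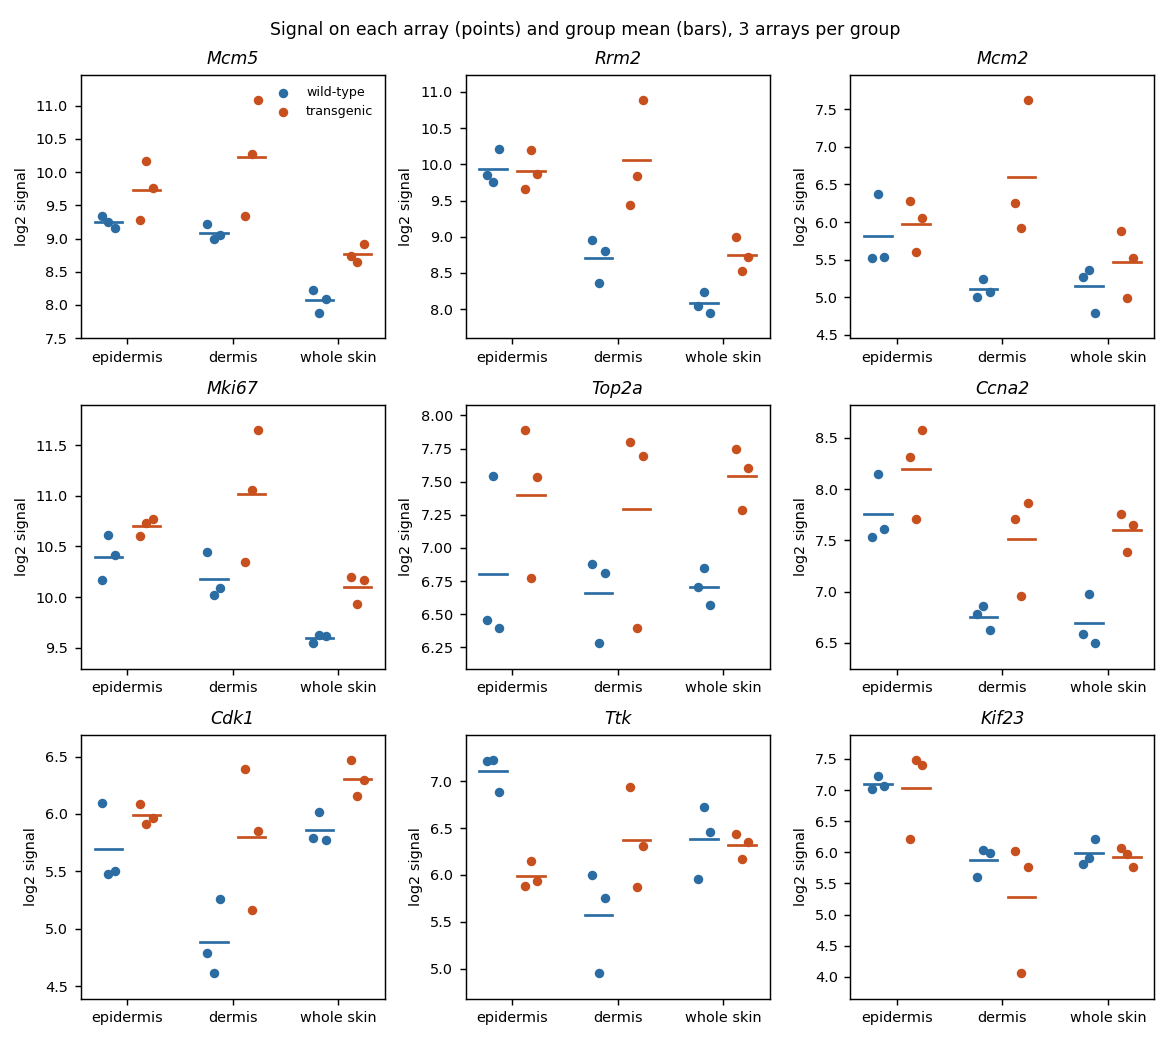
Log2 signal of 9 members on each array, by tissue (horizontal axis) and genotype (colour), with a bar at each group mean of 3 arrays and a separate vertical scale for each gene. In whole skin Mcm5, Rrm2, Mki67, Top2a, Ccna2 and Cdk1 have all transgenic arrays above all wild-type arrays, and in epidermis Ttk has all transgenic arrays below.

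**Figure D2:**
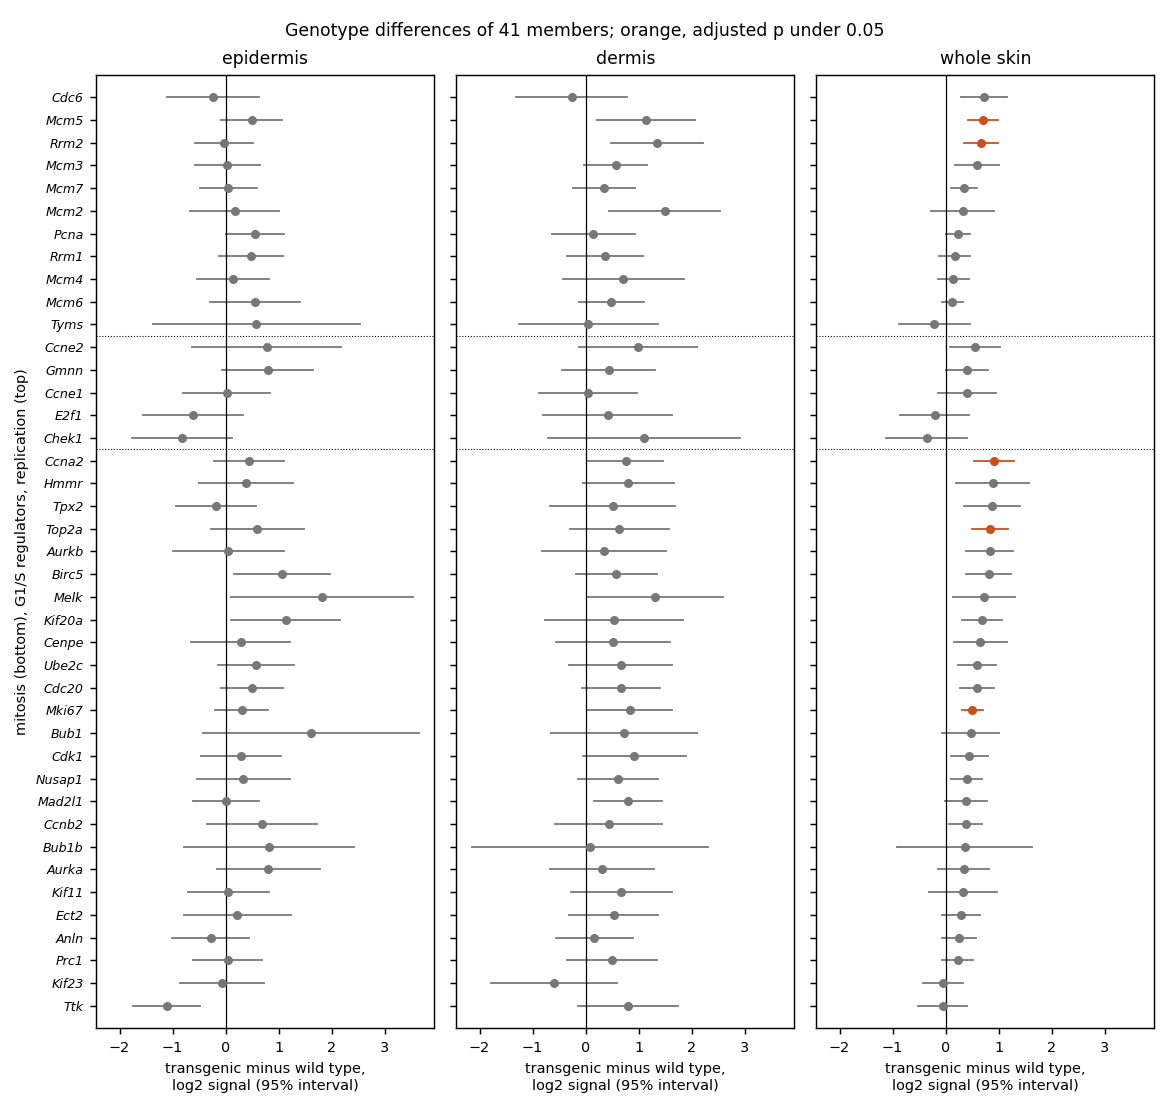
Difference in log2 signal, transgenic minus wild type, for the 41 tested members in each tissue, with 95% intervals from limma. Orange points passed an adjusted p of 0.05, which 5 members did in whole skin and 0 in epidermis and dermis, where the intervals are wider.

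In separated dermis, the members were higher on average but none passed the test. By limma with Benjamini-Hochberg adjustment 0 of 41 members were called, against 0.0655% of all genes higher and 0% lower, and 7 members were higher at an unadjusted p under 0.05 (2.08% of all genes) and 0 lower (2.25%). A difference above 0 was found for 39 of 41 members, against 45.4% of all genes. The groups were apart with transgenic arrays higher for 11 members and lower for 0, against 3.91% and 5.33% of all genes. Median differences were 0.48 over the replication genes, 0.61 over the mitosis genes and -0.05 over all genes.

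Mcm2 and Rrm2 had the largest differences in dermis. Mcm2 had 5.0, 5.24 and 5.07 on the wild-type arrays and 6.25, 5.92 and 7.62 on the transgenic arrays, a difference of 1.49 ± 0.46 (adjusted p = 0.981). The second probe set of Mcm2 differed by 0.71 ± 0.76, with overlapping groups. Rrm2 had 8.96, 8.36 and 8.81 against 9.44, 9.84 and 10.89, a difference of 1.35 ± 0.38 (adjusted p = 0.793), and its other 2 probe sets differed by 0.67 and 1.21. Mcm5 had 9.22, 9.0 and 9.05 against 9.34, 10.27 and 11.09, a difference of 1.14 ± 0.41 (adjusted p = 0.987), while its other 2 probe sets differed by -0.03 and 0.14. In all 3 genes the transgenic arrays lay above the wild-type arrays and replicate 3 was the highest, which made the transgenic spread wide. Cdc6 had the lowest value of the replication genes at -0.26 ± 0.46, and Pcna stood at 0.15 ± 0.35.

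Leaving out transgenic replicate 1, the array whose signal was least concentrated, gave 1.66 for Mcm2 (adjusted p = 0.138), 1.66 for Rrm2 (adjusted p = 0.0815) and 1.59 for Mcm5 (adjusted p = 0.061). The medians without it were 0.49 over the replication genes and 0.46 over the mitosis genes, and 0 genes of these lists were called. Over all genes, 46 were then called in place of 9.

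The mitosis genes in dermis differed between the transgenic arrays. On transgenic replicate 1 all 25 tested mitosis genes lay above their wild-type mean, on replicate 2 this held for 14 and on replicate 3 for 23, with median deviations of 0.96, 0.09 and 0.79. Mki67 had 10.44, 10.02 and 10.09 in wild type and 10.35, 11.05 and 11.65 in transgenic dermis, a difference of 0.83 ± 0.36 (adjusted p = 0.987), and its groups overlapped. Top2a had 6.88, 6.28 and 6.81 against 7.80, 6.39 and 7.70, with replicate 2 within the wild-type range, a difference of 0.64 ± 0.41. Cdk1 had 4.78, 4.61 and 5.26 against 6.39, 5.16 and 5.85, a difference of 0.92 ± 0.43 with overlapping groups. Melk, a kinase of dividing cells, had the largest difference of the mitosis genes at 1.31 ± 0.57, Hmmr stood at 0.80 ± 0.38 and Ttk at 0.80 ± 0.42, while the second Ttk probe set stood at -1.81. Kif23 was the 1 mitosis gene below 0, at -0.60 ± 0.53, with a transgenic range from 4.06 to 6.02.

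The order of the transgenic dermis arrays was not shared by all members. The median deviation of the replication genes was highest on replicate 3, at 0.70, and that of the mitosis genes on replicate 1. Chek1 had 3.83, 6.53 and 7.16 and E2f1 5.71, 7.05 and 7.72 on transgenic replicates 1 to 3, both lowest on replicate 1, where every mitosis gene was above its wild-type mean. These values are of 1 probe set per gene. The genotype difference of the E2f1 probe set used was 0.41, and those of its others were -0.25 and -0.26. The other tested probe sets of Chek1 differed by 0.08 to 1.11. Genes of the hair matrix, shaft and inner root sheath also moved with the genotype in dermis. Of 17 tested, 5 rose, among them Krt25, Tchh and Krt71, and the summed linear signal of the 24 on the array was 527.017 to 705.019 in wild type and 2868.35 to 4659.37 in transgenic dermis. All 12 tested basal keratinocyte genes had a difference below 0, 0 of them called, and their summed signal was 14467.4 to 16979.6 in wild type and 11180.9 to 12742.4 in transgenic dermis. All 8 alarm genes had a difference above 0, 0 of them called, with sums of 1118.46 to 1220.27 against 2138.45 to 4090.31. Of 10 T cell genes 0 were called, with sums of 512.537 to 599.906 against 655.294 to 811.403. The part of these cell types, the dividing hair matrix among them, in the members' differences was not tested. Of 39 other replication genes 0 were called in dermis and of 49 other mitosis genes 0, although 48 of the 49 had a difference above 0, with a median of 0.68.

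**Figure D3:**
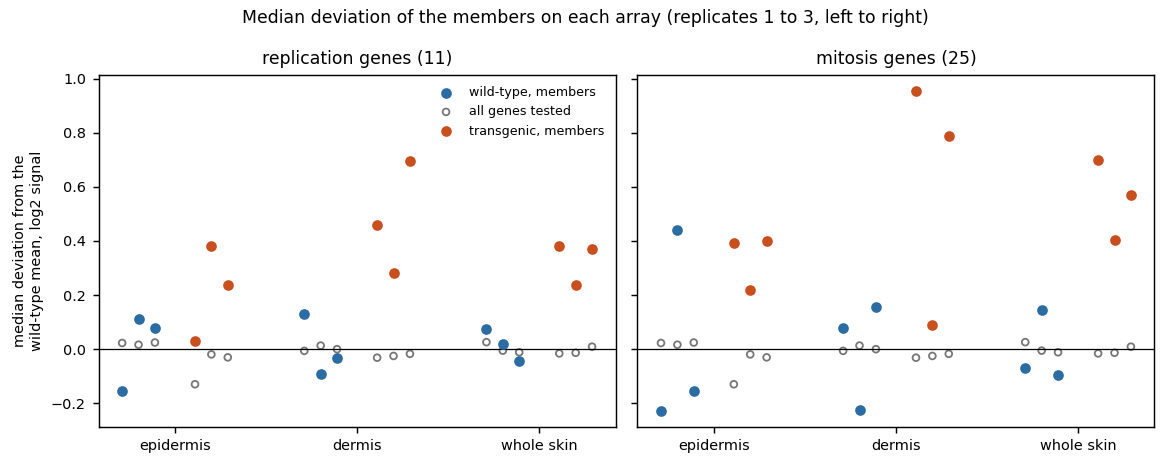
Median deviation of the 11 replication genes (left) and the 25 mitosis genes (right) from their wild-type mean in log2 signal on each array, by tissue and genotype, with the median of all genes tested as open circles. In whole skin the 3 transgenic arrays stand at 0.24 to 0.38 for replication and 0.40 to 0.70 for mitosis, and in dermis transgenic replicate 2 stands at 0.09 for mitosis beside 0.96 and 0.79.

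In separated epidermis, 0 of 41 members were called by limma with Benjamini-Hochberg adjustment, against 1.54% of all genes higher and 0.844% lower. A difference above 0 was found for 33 of 41 members (44.6% of all genes), with medians of 0.17 over the replication genes, 0.34 over the mitosis genes and -0.10 over all genes. At an unadjusted p under 0.05, 3 members were higher and 1 was lower, against 8.79% and 8.83% of all genes. The groups were apart for 3 members upward and 1 downward, against 10.6% and 12.3% of all genes. With 1 array left out in turn, 0 to 3 mitosis genes and 0 replication genes were called, and the mitosis median ran from 0.14 to 0.62. Over all genes, 58 to 1385 were then called in place of 327, the most without wild-type replicate 2.

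The member with the smallest p in epidermis was Ttk, and it was lower. Its log2 signals were 7.22, 7.22 and 6.88 in wild type and 5.89, 6.15 and 5.94 in transgenic epidermis, so that every transgenic array lay below every wild-type array. The difference was -1.11 ± 0.29 (adjusted p = 0.0785), and the second Ttk probe set stood at -2.60 ± 0.78, also with groups apart. The adjusted p of Ttk was 0.0339 with all 18 arrays in the fit and ran from 0.0581 to 0.266 under the other settings tried.

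The largest positive differences in epidermis belonged to mitosis genes with a wide wild-type spread. Melk had 2.74, 5.36 and 2.29 in wild type and 5.92, 4.76 and 5.15 in transgenic epidermis, a difference of 1.82 ± 0.77 (adjusted p = 0.261). Bub1, a checkpoint kinase, had 0.68, 4.56 and 3.42 against 4.95, 3.90 and 4.63, a difference of 1.61 ± 0.92 (adjusted p = 0.380). Both had overlapping groups, the second probe set of Bub1 stood at 0.05, and wild-type replicate 2 was the highest wild-type array for both. Kif20a, a kinesin of cytokinesis, differed by 1.13 ± 0.47 (adjusted p = 0.247) and Birc5, survivin of the passenger complex, by 1.06 ± 0.41 (adjusted p = 0.214), the latter with groups apart. Bub1b, a checkpoint protein, stood at 0.82 ± 0.72 and its second tested probe set at -0.40. The lowest values after Ttk were those of Anln, a scaffold of the contractile ring, at -0.28 ± 0.33, Tpx2 at -0.18 ± 0.34 and Kif23 at -0.07 ± 0.36. On wild-type replicate 2, 23 of 25 mitosis genes lay above the wild-type mean, against 6 on replicate 1 and 8 on replicate 3.

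Proliferation markers had small differences in epidermis against their errors. Mki67 stood at 0.30 ± 0.22 (adjusted p = 0.488), Top2a at 0.60 ± 0.39 (adjusted p = 0.439) and Cdk1 at 0.29 ± 0.34 (adjusted p = 0.658). The second tested probe set of Top2a stood at -0.43, opposite in sign. Among the replication genes Pcna had 9.0, 9.31 and 9.14 in wild type and 10.08, 9.68 and 9.35 in transgenic epidermis, a difference of 0.55 ± 0.25 with groups apart (adjusted p = 0.285). Rrm2 differed by -0.03 ± 0.24 with a 95% interval from -0.57 to 0.51, Mcm2 by 0.17 ± 0.38 and Tyms by 0.58 ± 0.88. Of the G1/S regulators, Gmnn, the licensing inhibitor geminin, stood at 0.79 ± 0.39, Ccne2 at 0.77 ± 0.64, Chek1 at -0.82 ± 0.43 and E2f1 at -0.62 ± 0.43, none of them called. The other tested probe sets of Chek1 stood at 0.25, 0.58 and 0.81, opposite in sign, and those of E2f1 at 0.24 and -0.54. Cdc6 stood at -0.23 ± 0.39.

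Keratinocyte and stromal genes moved with the genotype in epidermis. All 8 tested alarm genes rose, with a summed linear signal of 1147.73 to 2849.47 in wild type and 12450.2 to 27672.3 in transgenic epidermis. Of 12 basal keratinocyte genes 2 fell, Krt15 and Col17a1, and their summed signal was 18324.8 to 23757.5 in wild type and 13029.5 to 13582 in transgenic epidermis. Of 15 fibroblast genes 4 rose, with a summed signal of 4788.62 to 10707.2 against 11553.9 to 18163.5. Their part in the members' values was not tested.

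Whether the genotype difference was unlike in dermis and epidermis was tested as an interaction in limma over the 12 arrays of both layers. Of the 41 members 0 were called, against 0.0218% of all genes higher and 0% lower. At an unadjusted p under 0.05, 4 members had a higher genotype difference in dermis (3.44% of all genes) and 0 a lower one (4.57%). The largest values among the mitosis genes were 1.92 ± 0.50 for Ttk (adjusted p = 0.336) and 0.79 ± 0.37 for Mad2l1, a checkpoint protein (adjusted p = 0.621). The second Ttk probe set had genotype differences of the same sign in both layers, -2.60 in epidermis and -1.81 in dermis. Among the replication genes Rrm2 stood at 1.38 ± 0.47 (adjusted p = 0.535) and Mcm2 at 1.32 ± 0.61 (adjusted p = 0.62). The second Mcm2 probe set had genotype differences of 0.44 in epidermis and 0.71 in dermis. Chek1 reached 1.92 ± 0.99 (adjusted p = 0.628). Its other tested probe sets had genotype differences above 0 in both layers, 0.25 to 0.81 in epidermis and 0.08 to 1.11 in dermis. The lowest mitosis values were those of Bub1, at -0.88 ± 1.20, and Bub1b, another checkpoint kinase, at -0.74 ± 1.36. Values further down were 0.70 ± 0.63 for Tpx2, 0.62 ± 0.55 for Kif11, a motor of spindle poles, and 0.62 ± 0.53 for Cdk1, with Kif20a at -0.60 ± 0.82, Kif23 at -0.53 ± 0.67 and Melk at -0.51 ± 1.05. Among the other genes Tyms stood at -0.53 ± 1.13, Pcna at -0.41 ± 0.44 and Gmnn at -0.36 ± 0.58.

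In wild-type skin, 5 mitosis genes and Rrm2 were lower in dermis than in epidermis. Of the 41 members 6 were lower in dermis at an adjusted p under 0.05 and 0 were higher, against 6.83% and 12.7% of all genes. The 6 were the replication gene Rrm2 and the mitosis genes Ttk, Kif23, Prc1, Ccna2 and Kif11. The groups were apart with dermis lower for 14 members and higher for 0, against 16.8% and 23.2% of all genes. The median difference, dermis minus epidermis, was -0.05 over the replication genes, -0.43 over the mitosis genes and 0.05 over all genes. These wild-type arrays also enter the genotype comparisons, so the values are given side by side and not related to each other.

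Rrm2 had 9.85, 9.75 and 10.21 in wild-type epidermis and 8.96, 8.36 and 8.81 in wild-type dermis, a difference of -1.23 ± 0.26 (adjusted p = 0.0089). Ttk had 7.22, 7.22 and 6.88 against 6.0, 4.95 and 5.75, a difference of -1.54 ± 0.35 (adjusted p = 0.0126). Kif23 had 7.02, 7.23 and 7.06 against 5.60, 6.04 and 6.0, a difference of -1.22 ± 0.29 (adjusted p = 0.0148). The groups of these 3 genes did not overlap. Prc1, which bundles midzone microtubules, was lower in dermis, at -1.12 ± 0.30 (adjusted p = 0.0253), Kif11 at -1.15 ± 0.32 (adjusted p = 0.0305) and Ccna2 at -1.01 ± 0.27 (adjusted p = 0.0279), all with groups apart. With each array left out in turn, the adjusted p stayed under 0.05 for Rrm2 (0.00672 to 0.0446) and Ttk (0.0179 to 0.046), and rose to between 0.0571 and 0.112 at its highest for the other 4 genes. Leaving out wild-type dermis replicate 1 or 3 left 1 mitosis gene called in place of 5. Over all genes, 1827 and 1253 were then called in place of 2684. Leaving out wild-type epidermis replicate 2 or 3 left 3 or 2 mitosis genes, with 4040 and 1649 of all genes called.

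A further 8 members, none of them called, had all wild-type dermis arrays below all epidermis arrays. They were Ube2c, Tpx2, Cdk1, Mcm2, Cdc6, Cdc20, an activator of anaphase, Ccne1 and Mad2l1, with differences from -1.35 to -0.46. Of the other members, 27 had overlapping groups. Ube2c, the ubiquitin-conjugating enzyme of anaphase, stood at -1.35 ± 0.44 (adjusted p = 0.0533), Chek1 at -1.01 ± 0.44 and E2f1 at -0.84 ± 0.48. The other tested probe sets of Chek1 stood at -0.15, -0.03 and 0.01. Positive values were led by Bub1 at 1.30 ± 0.95, Melk at 0.85 ± 0.87 and Mcm6, a helicase subunit, at 0.74 ± 0.39, none of them called. The second probe set of Bub1 stood at -0.78, opposite in sign. Tyms stood at 0.64 ± 0.88, Gmnn at 0.47 ± 0.36, Kif20a at 0.32 ± 0.48, Aurka, the kinase of spindle poles, at 0.20 ± 0.47 and Ect2, an activator of the contractile ring, at 0.06 ± 0.47. Mki67 was within its error at -0.22 ± 0.25. With every probe set tested on its own, 13 of the 83 of the members were lower in dermis and 0 higher. Of all 25931 probe sets tested this way, 4972 were called, 2651 of them higher. The 13 included further probe sets of Rrm2, Ttk, Prc1 and Kif11 and 1 of Rrm1. Of 39 other replication genes 1 was higher in wild-type dermis (12.7% of all genes) and 0 lower, Timeless, a fork protection protein, by 1.80 ± 0.49 (adjusted p = 0.0291), and of 49 other mitosis genes 1 was lower (6.83% of all genes) and 0 higher, Sgo2a, a guardian of centromere cohesion, at -1.18 ± 0.37 (adjusted p = 0.0473).

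In transgenic skin 1 of 41 members was lower in dermis than in epidermis and 0 were higher, against 6.67% and 10.6% of all genes. Ube2c had 7.25, 7.58 and 7.62 in transgenic epidermis and 6.53, 6.22 and 5.88 in transgenic dermis, a difference of -1.27 ± 0.30 (adjusted p = 0.0206) with groups apart. With each array left out in turn its adjusted p ran from 0.00858 to 0.0976, and the call was lost without transgenic dermis replicate 2 or transgenic epidermis replicate 2 or 3. The groups were apart with dermis lower for 3 members and higher for 2, against 15.5% and 21% of all genes. Kif23 stood at -1.75 ± 0.57 (adjusted p = 0.0649), with 6.22, 7.48 and 7.40 against 6.02, 4.06 and 5.77. Rrm2 and Ttk, lower in the dermis of wild-type mice, stood at 0.15 ± 0.38 and 0.38 ± 0.36 here. With the mean of a gene's probe sets, Ttk was below 0 here. The difference of the layer effects between genotypes is the interaction given above, which neither gene passed.

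Values of other named members in the transgenic layers were 0.92 ± 0.51 for Mcm4, 0.67 ± 0.28 for Mcm6 and -0.73 ± 0.51 for Cdc6 among the replication genes, and -0.30 ± 0.36 for Pcna. Chek1 stood at 0.91 ± 0.79 and Ccne1, a cyclin of S phase entry, at -0.52 ± 0.39. The mitosis genes had a median of -0.25 (all genes 0.10), which was 0.13 without transgenic dermis replicate 2. Single values were those of Birc5 at -0.71 ± 0.32, Ccna2 at -0.69 ± 0.34, Bub1b at -0.78 ± 0.97, Bub1 at 0.41 ± 0.60, Ect2 at 0.36 ± 0.35, Melk at 0.34 ± 0.47 and Mad2l1 at 0.33 ± 0.29. The replication genes had a median of 0.15. Of 39 other replication genes 2 were higher in transgenic dermis (10.6% of all genes) and of 49 other mitosis genes 0 were called. The 2 were Timeless by 1.41 ± 0.32 (adjusted p = 0.0169) and Rfc2, a clamp loader subunit, higher by 1.34 ± 0.31 (adjusted p = 0.0173).

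**Figure D4:**
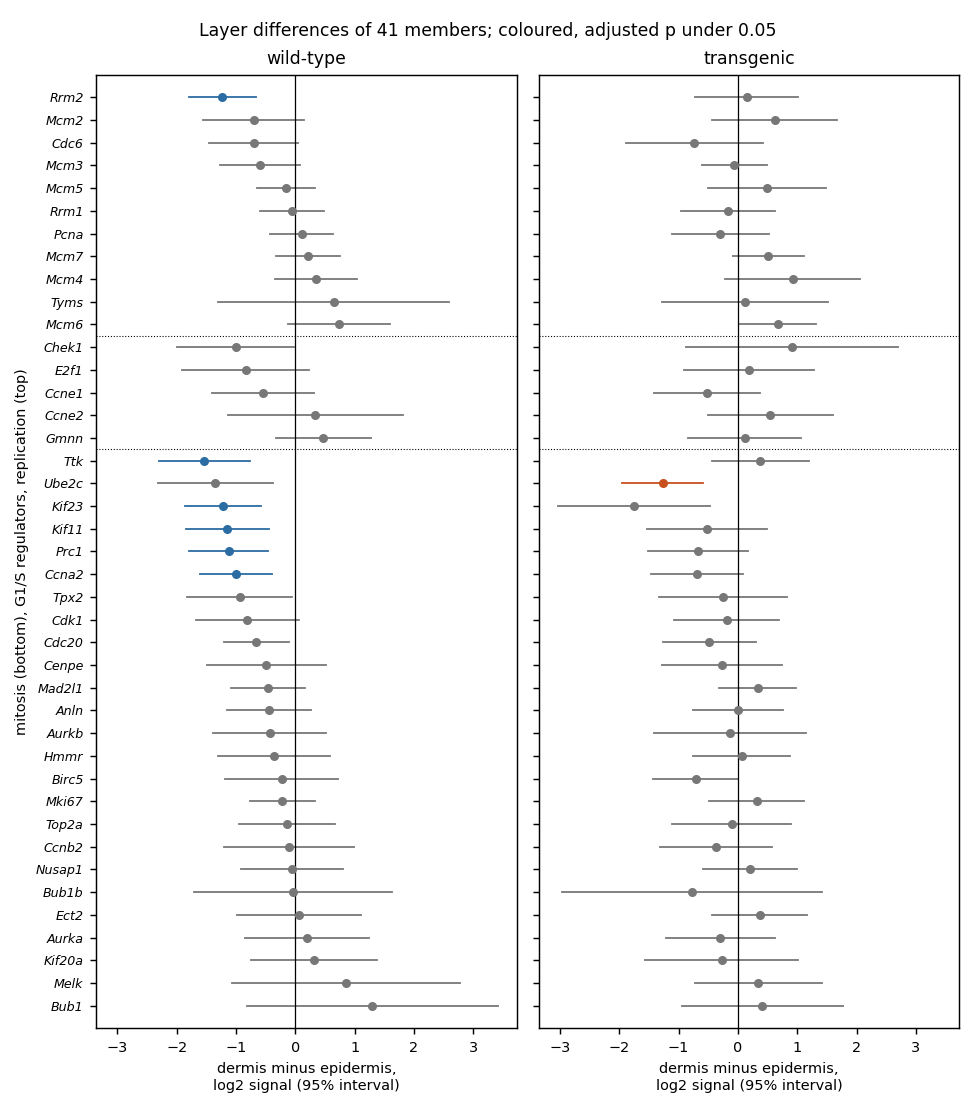
Difference in log2 signal, dermis minus epidermis, for the 41 tested members in wild-type (left) and transgenic (right) skin, with 95% intervals from limma. Coloured points passed an adjusted p of 0.05: 6 members, all lower in dermis, in wild type and Ube2c in transgenic skin.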

How the data were processed

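RNA was hybridised to 18 one-channel arrays, 3 for each of 6 groups. The submitters' processing notes name MAS5 without a version; that Affymetrix method subtracts mismatch signal and brings arrays to a shared trimmed mean. The values deposited by the authors, 1 table covering 45037 probe sets, were read as log2 signal. No label states the scale. It was read from the values, which ran from -7.52 to 14.42 and whose linear trimmed mean was 98.9 to 99.5 on every array. MAS5 spreads dim probe sets widely, so differences at low signal are imprecise, and the number of arrays limits the precision.

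Gene symbols came from the platform annotation and were checked against RefSeq on GRCm38.p6 (0 changed): 34945 probe sets had 1 symbol, 932 several and 9160 none here. For each of 18193 genes the brightest probe set on average was kept, and genes above the 30th percentile of signal were tested (13739). Values were used as deposited. Each comparison was fitted in limma 3.58.1 under R 4.3.3 on the compared arrays alone, since the spread differed between tissues, with an intensity trend in the prior variance and Benjamini-Hochberg adjustment over all genes tested (threshold 0.05). The fit was tested on simulated data. Motifs were searched in Python.

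The genes named were every called member, the 3 (replication and G1/S) or 5 (mitosis) largest differences in each direction that fell on that side of 0, and Mki67, Top2a, Cdk1, Mcm2, Pcna and Rrm2 in every tissue. From the lists of other replication and other mitosis genes up to 4 called genes were named. Ccne2 in whole skin, Mki67, Tpx2, Cdk1, Mcm2, Cdc6, Cdc20, Ccne1 and Mad2l1 in the wild-type layers, and the array order of Chek1 and E2f1 in transgenic dermis, were picked after their values were seen. Members and lists were chosen with earlier results of these data known. Alternatives were all 18 arrays with and without weights by tissue, the mean of a gene's probe sets, every probe set, no filter or the 50th percentile, 16 added on the linear scale, quantile normalization, a common 75th percentile, no trend, the replicate number as a block, and each array left out.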

Additional observations from a re-analysis of the deposited data

How the results depend on the processing

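The number of arrays and the width of dim MAS5 signals limit these results, and most counts of called members are small. Each value below is a log2 difference or a count of genes called, with the value in the report in brackets. In whole skin the differences of Mcm5, Rrm2, Mki67, Top2a and Ccna2 stayed above 0 under every setting tried. No difference called in the report turned its direction. Over all named members and comparisons, an adjusted p crossed the threshold upward 21 times and downward 16 times with all arrays kept, and 42 and 9 times with 1 array left out. The cause was not tested for any change given here.

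A fit of all 18 arrays gave 1 (from 0) mitosis genes called, for genotype in epidermis. It gave 0 (from 2) replication genes called and 0 (from 3) mitosis genes called, for genotype in whole skin. It gave 2 (from 1) mitosis genes called, between the transgenic layers. Weights by tissue in that fit gave 4 (from 2) replication genes called and 8 (from 3) mitosis genes called, for genotype in whole skin. It gave 2 (from 1) mitosis genes called, between the transgenic layers. The mean of a gene's probe sets gave -0.69 (from 0.58) for Tyms, 0.092 (from -0.82) for Chek1, -0.22 (from 0.82) for Bub1b, 0.014 (from -0.072) for Kif23, -0.40 (from 0.60) for Top2a and 0.11 (from -0.028) for Rrm2, for genotype in epidermis. It gave -0.51 (from 0.80) for Ttk and -0.12 (from 0.64) for Top2a, for genotype in dermis. It gave 0 (from 2) replication genes called, 0.39 (from -0.35) for Chek1, 0.31 (from -0.21) for Tyms and 0.33 (from -0.050) for Kif23, for genotype in whole skin. It gave 0.10 (from -0.53) for Tyms, in the interaction. It gave 2 (from 1) replication genes called, -0.49 (from -0.051) for the replication median, -0.49 (from 0.74) for Mcm6, -0.43 (from 0.64) for Tyms and -0.17 (from 0.20) for Aurka, between the wild-type layers. It gave 1 (from 0) replication genes called, -0.30 (from 0.15) for the replication median, 2 (from 1) mitosis genes called, -0.072 (from 0.41) for Bub1 and -0.50 (from 0.38) for Ttk, between the transgenic layers. Testing every probe set gave 2 (from 1) replication genes called, -0.39 (from -0.051) for the replication median and -0.77 (from -0.43) for the mitosis median, between the wild-type layers. Dropping the filter on dim genes gave 2 (from 1) mitosis genes called, between the transgenic layers. Adding 16 on the linear scale gave 0.35 (from 0.47) for the mitosis median, for genotype in whole skin. It gave 3 (from 1) mitosis genes called, between the transgenic layers. Quantile normalization gave 0.33 (from 0.17) for the replication median, 0.075 (from -0.23) for Cdc6, 0.055 (from -0.18) for Tpx2 and 0.0026 (from -0.072) for Kif23, for genotype in epidermis. It gave 2 (from 1) mitosis genes called, between the transgenic layers. A common 75th percentile gave 0.28 (from 0.17) for the replication median, 0.042 (from -0.072) for Kif23 and 0.085 (from -0.028) for Rrm2, for genotype in epidermis. It gave 6 (from 3) mitosis genes called, for genotype in whole skin. A prior without trend gave 0 (from 2) replication genes called and 0 (from 3) mitosis genes called, for genotype in whole skin. The replicate number as a block gave 1 (from 2) replication genes called and 0 (from 3) mitosis genes called, for genotype in whole skin.

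Of 15 pairs of same-numbered arrays, 3 had deviations correlated above 0.1 (range -0.34 to 0.40). Transgenic dermis and epidermis were correlated at 0.40, 0.18 and -0.04 for replicates 1 to 3, and the wild-type layers at -0.07 to 0.02. Pairs of a transgenic and a wild-type array cannot share an animal, so they cannot speak to the pairing of tissues. Whether the layers share animals was not settled, and the main fits treated them as unpaired. With the replicate number as a block, 1 replication gene and 0 mitosis genes were called in whole skin.

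Counts of called members under the alternatives cover the replication and mitosis genes, and not the 5 G1/S regulators. Among those, E2f1 reached an adjusted limma p of 0.0405 between the wild-type layers with 1 array left out. Chek1 reached 0.0145 between the transgenic layers. With 1 array left out at a time, the following values also moved or turned. For the genotype comparison in epidermis the range was 0.025 to 0.45 for the replication median, 0 to 3 mitosis genes called, 0.14 to 0.62 for the mitosis median, -0.47 to 1.20 for Tyms, -0.54 to 0.078 for Cdc6, -0.089 to 1.32 for Bub1b, -0.29 to 0.33 for Kif23 and -0.18 to 0.11 for Rrm2. For the genotype comparison in dermis the range was 0.26 to 0.65 for the replication median, -0.62 to 0.11 for Cdc6, -0.97 to 0.013 for Kif23 and -0.12 to 0.50 for Pcna. For the genotype comparison in whole skin the range was 0 to 1 replication genes called, 0.16 to 0.39 for the replication median, 0 to 5 mitosis genes called, -0.39 to 0.15 for E2f1, -0.27 to 0.11 for Ttk and -0.13 to 0.066 for Kif23. For the interaction of genotype and layer the range was 0.20 to 0.53 for the replication median, -0.051 to 0.50 for the mitosis median, -1.15 to 0.53 for Tyms, -0.66 to 0.032 for Gmnn, -1.72 to 0.22 for Bub1, -1.66 to 0.52 for Bub1b, -1.02 to 0.13 for Kif20a, -0.93 to 0.085 for Kif23 and -1.46 to 0.078 for Melk. For the wild-type layers the range was 1 to 2 replication genes called, -0.19 to 0.10 for the replication median, 1 to 5 mitosis genes called, -0.60 to -0.11 for the mitosis median, -0.41 to 1.27 for Tyms, -0.21 to 0.74 for Kif20a, -0.12 to 0.42 for Aurka and -0.36 to 0.45 for Ect2. For the transgenic layers the range was 0 to 1 replication genes called, -0.051 to 0.48 for the replication median, 0 to 2 mitosis genes called, -0.35 to 0.13 for the mitosis median, -0.57 to 0.051 for Pcna, -0.061 to 0.95 for Bub1 and -1.70 to 0.48 for Bub1b.

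Over all genes tested, counts moved by more than 1.5 times as follows. In epidermis the 327 calls became 1044 with all 18 arrays, 509 with weights by tissue, 60 with no trend and 114 with the replicate block, and 58 to 1385 with 1 array left out. In dermis the 9 calls became 38 with all 18 arrays and 5 with weights by tissue, and 2 to 46 with 1 array left out. In whole skin the 384 calls became 37 with all 18 arrays, 594 with weights by tissue, 240 with probe set means, 84 with no trend and 251 with the replicate block, and 95 to 410 with 1 array left out. In the interaction the 3 calls became 42 with all 18 arrays, 11 with weights by tissue, 7 with probe set means, 0 with single probe sets, 9 with 16 added, 0 with quantile normalization, 5 with the 75th percentile shift, 0 with no trend and 1 with the replicate block, and 0 to 54 with 1 array left out. In the wild-type layers the 2684 calls became 4035 with all 18 arrays and 4972 with single probe sets, and 1253 to 4040 with 1 array left out. In the transgenic layers the 2374 calls became 4393 with all 18 arrays and 3828 with single probe sets, and 1266 to 3696 with 1 array left out. Quantile normalization and the 75th percentile shift moved the median of all genes in epidermis from -0.10 to 0.04 and 0.02. The share of calls higher in dermis was 65.1% in wild type, against 51.3% with probe set means and 53.3% with single probe sets. In transgenic skin it was 1457 of 2374 calls, against 1140 of 2278 with probe set means.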
